A study of Homo sapiens with 4 samples.

Results

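The genes described here are 10 genes of the acute phase response and of interleukin-6 (IL-6) signalling. They are the plasma protein genes HP, HPX, ORM1, ORM2, SAA1 and CRP, the receptor genes IL6R and IL6ST, the transcription factor gene STAT3 and the inhibitor gene SOCS3. They were taken by symbol from a deposited table of 57979 genes with FPKM values, a level scaled to transcript length and to the mapped fragments of the library. Polyadenylated RNA was sequenced from 2 libraries of wild type cells and 2 libraries of TXNDC9 knockout cells, all labelled HepG2, a human liver cancer cell line. TXNDC9 encodes a thioredoxin domain protein, and it was targeted with Cas9 and guide RNAs delivered by lentivirus. Both groups were untreated as far as the labels say, and no cytokine was named for either. For cells used in a protein blot, the study describes sorting for infected cells, with vector alone as the control. For the sequenced cells, the sources used here do not give which guide the knockout cells carried, whether they were a sorted pool or 1 clone, or whether the wild type cells had received an empty vector. Nothing in the labels says that the 2 libraries of a group came from separate cultures, so p-values measure only the spread between these libraries.

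In the liver, IL-6 binds IL6R and then the shared signalling subunit gp130, which is encoded by IL6ST. Gp130 carries Janus kinases, which phosphorylate STAT3, and STAT3 then enters the nucleus and activates genes for acute phase proteins together with C/EBP factors. One of the genes that STAT3 activates is SOCS3, whose protein binds gp130 and the kinases and shuts the signal down. Hepatocytes are the main source of these plasma proteins. HepG2 cells are widely used to study them because they normally secrete albumin, haptoglobin and other liver proteins.

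The label was therefore checked against hepatocyte markers before any comparison, and these markers went against it. Of the 10 markers ALB, AFP, APOA1, APOB, TTR, TF, SERPINA1, FGB, APOH and AHSG, none had a mean above 1 FPKM, 9 had a mean below 0.1 FPKM, and 3 were listed at 0 in all 4 libraries. The highest single value of any of them was 0.449 FPKM, for AFP in wild type replicate 2. Summed over the 10 markers, wild type cells had 0.383 and 0.733 FPKM and knockout cells 0.0236 and 0.153 FPKM. Liver transcription factor genes were mixed. FOXA2 was listed at 0 in every library, and HNF4A was between 0 and 0.0628 FPKM. FOXA1 was between 2.92 and 8.53 FPKM and CEBPA between 3.24 and 4.38 FPKM. The plasma protein genes C3 and F12, described below, were also above 1 FPKM in every library. The 10 hepatocyte markers were at or near 0 in both groups, and the cells are called below only by their labels. A listing at 0 may be a failed estimate, since MT-CO1, a mitochondrial gene that every cell uses, was also listed at 0 in all 4 libraries.

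TXNDC9, the targeted gene, had wild type values of 35.1 and 37.3 FPKM and knockout values of 21.9 and 27.6 FPKM. Its log2 fold change was -0.55 (SE 0.14, n = 2 per group, limma adjusted p = 0.0145), which missed the threshold for a call. After rescaling every library to the same FPKM sum, the value was 0.12. The FPKM sums themselves were 805816 and 971102 in the wild type and 535973 and 568279 in the knockout, so all levels below are relative within a library. The deposited values hold no counts, and the sequencing depth behind them is unknown. In bulk RNA, fewer cells that express a gene and less RNA per cell cannot be told apart. The study reports reduced TXNDC9 in a protein blot of its knockout cells. Protein was not measured in these libraries, and the RNA level of TXNDC9 does not show how much protein was left.

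Of the 10 genes, 5 had a mean above 1 FPKM over the 4 libraries and entered the test: SAA1, SOCS3, IL6R, IL6ST and STAT3. The test was limma on log2(FPKM + 0.1), with Benjamini-Hochberg adjustment over 13246 genes, and a call needed an adjusted p below 0.01 as well as a change of at least 2-fold. SAA1 fell and was the only 1 of the 5 called lower, where 15.3% of all tested genes were called lower. IL6R, IL6ST and STAT3 rose, where 14.2% of all tested genes were called higher. SOCS3 was not called. HP, HPX, ORM1, ORM2 and CRP were too low to test, and SAA1 passed the filter only through its wild type values. Non-overlap of the groups is common here: both knockout libraries lay above both wild type libraries in 40.15% of tested genes and below them in 45.95%.

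Calls at this threshold needed both knockout libraries, for every tested gene. Without knockout replicate 1 or without knockout replicate 2, limma called 0 of all tested genes, with lowest adjusted p-values of 0.0160 and 0.0232. In those fits 7129 and 7307 genes had an unadjusted p below 0.05, and SAA1, IL6R, IL6ST and STAT3 were among them both times. Without either wild type library, the same 4 genes kept their direction. Over the 4 fits that leave out a library, the log2 fold change ran from -3.65 to -2.55 for SAA1, from 1.26 to 1.43 for IL6R, from 1.496 to 1.81 for IL6ST and from 1.12 to 1.17 for STAT3.

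**Figure D1:**
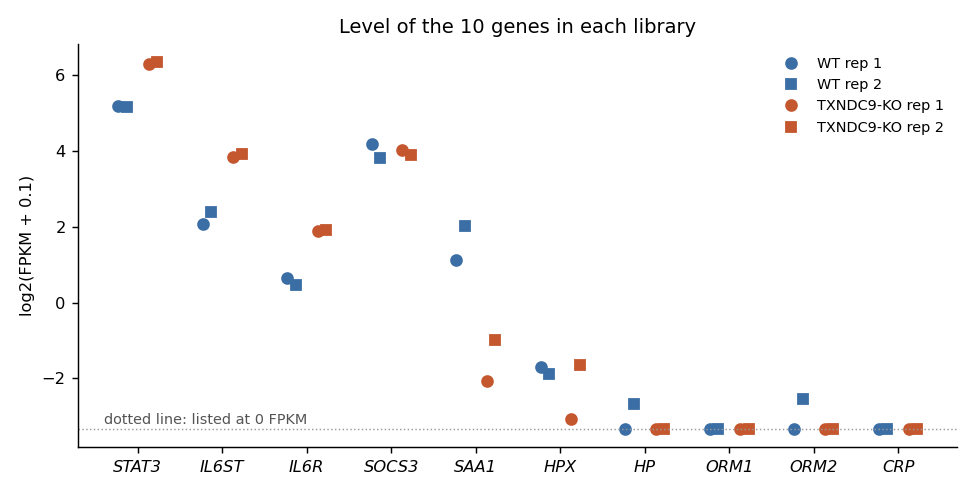
FPKM of the 10 genes in each library on a log2 scale after adding 0.1, with 1 point per library and the 2 groups in different colours. STAT3, IL6ST and IL6R are higher in both knockout libraries, SAA1 is lower in both, and the SOCS3 points overlap. HP, ORM1, ORM2 and CRP lie at or near the dotted line that marks 0 FPKM. HPX lies above that line except in knockout replicate 1, where it is close to it.

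The levels of the IL-6 family ligands come first, because they feed the receptors. IL6, the ligand itself, had wild type values of 0.145 and 0.473 FPKM and knockout values of 0.114 and 0.164 FPKM, below the level needed for the test. Only 3 of the 10 ligand genes were tested, and limma called 0 of them, where 14.2% of all tested genes were called higher and 15.3% lower. At an unadjusted p below 0.05, 2 of the 3 were lower, by less than 2-fold. The untested ligand genes included larger differences in both directions. IL11 had 1.002 and 1.605 FPKM in the wild type and 0.254 and 0.119 FPKM in the knockout. CNTF had 0.313 and 0.217 FPKM in the wild type and 1.355 and 1.59 FPKM in the knockout. LIF and CLCF1 were among the tested genes. CLCF1 had 5.83 and 5.94 FPKM in the wild type and 3.49 and 3.95 FPKM in the knockout (log2 fold change -0.65). Its direction turned with rescaling to the same sum, to 0.02.

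IL6R encodes the receptor subunit that binds IL-6 and lies on chromosome 1 from 154405193 to 154469450 on the plus strand (hg38). Wild type cells had 1.46 and 1.28 FPKM, and knockout cells had 3.59 and 3.66 FPKM. The groups did not overlap, and the knockout libraries differed from each other by less than the wild type libraries did. IL6R rose by 1.34 on the log2 scale (SE 0.19, 2.54-fold, limma adjusted p = 0.00177), from 1.37 ± 0.126 to 3.62 ± 0.0514 FPKM (SD, n = 2 per group). Antisense transcripts overlap the gene, and since strand use in the counting is not given in the sources used here, reads of the overlapping genes cannot be told apart.

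IL6ST, on chromosome 5 from 55935095 to 55995022 on the minus strand, encodes gp130, which most receptors of the family share. Its level was 4.08 and 5.12 FPKM without the knockout and 14.2 and 15.0 FPKM with it. Every knockout value was more than 2-fold above every wild type value. IL6ST rose by 1.66 (SE 0.14, 3.15-fold, limma adjusted p = 5.76e-04), from 4.60 ± 0.730 to 14.6 ± 0.547 FPKM (SD, n = 2 per group), and this was the largest increase among the 10 genes. IL6ST also overlaps 3 annotated genes on the opposite strand.

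Among the 8 receptor genes of the family, 6 were tested by limma, 3 rose and 0 fell (0 lower at an unadjusted p below 0.05), with a median log2 fold change of 1.08 against -0.09 over all tested genes, of which 14.2% rose and 15.3% fell. LIFR, the partner of gp130 for leukemia inhibitory factor, rose the most, from 11.8 and 10.1 FPKM to 56.7 and 58.2 FPKM (log2 fold change 2.39, limma adjusted p = 4.86e-04). OSMR, the partner of gp130 for oncostatin M, had 16.6 and 19.0 FPKM against 30.7 and 31.9 FPKM. This difference of 0.82 on the log2 scale (limma adjusted p = 0.00165) was below 2-fold. After rescaling to the same sum OSMR was called higher (1.49, limma adjusted p = 1.39e-04). IL11RA and IL27RA were not called and had negative values. The 3 that rose were LIFR and the already described IL6R and IL6ST. The tested receptor genes had a median length of 5645 nt, against 2866.5 nt over all tested genes. After a correction for transcript length and GC content, described below, their median log2 fold change was 0.49 and 1 was called higher. Over all 13112 genes with that correction, the median was -0.05 and 841 were called higher.

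Ratios within a library do not depend on how the libraries are scaled, and 7 were computed. They do depend on the trends with transcript length and GC content described below, for which they were not corrected. IL6R was 0.357 and 0.250 of IL6ST in the wild type and 0.252 and 0.244 in the knockout, so the ranges overlapped (exact permutation p = 0.667, two-sided). LIFR was 2.89 and 1.97 times IL6ST in the wild type and 3.98 and 3.88 times in the knockout, while OSMR went the other way, with 4.06 and 3.71 times against 2.15 and 2.12 times. For these last comparisons the exact two-sided permutation p was 0.333 (0.389 adjusted over the 7 ratios), the smallest that 2 libraries against 2 allow. After the correction for length and GC content, the log2 fold changes were 1.22 for LIFR, 0.21 for OSMR and 0.52 for IL6ST.

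**Figure D2:**
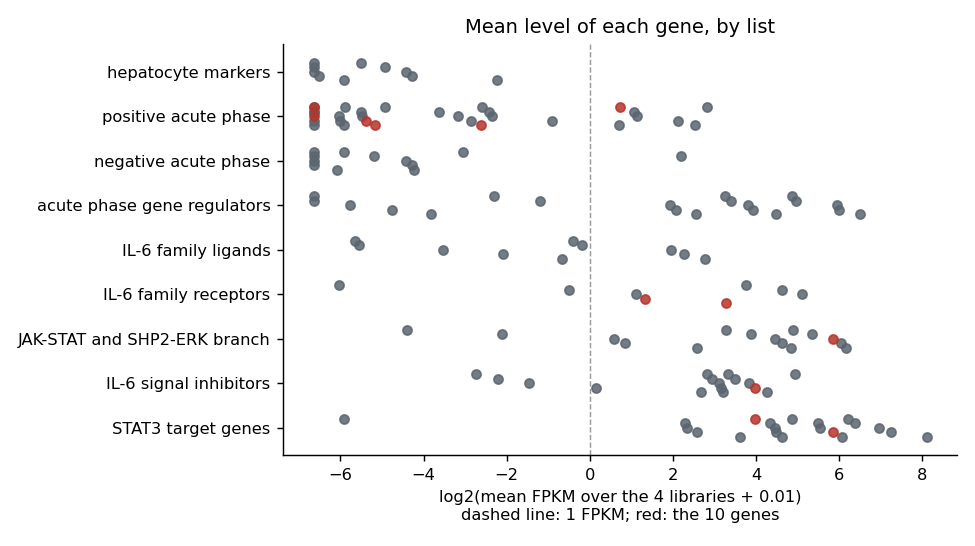
Mean FPKM over the 4 libraries of each gene on a log2 scale after adding 0.01, grouped by list, with the 10 genes in red and a dashed line at 1 FPKM. Most plasma protein genes lie left of the line, whereas most receptor, kinase and STAT3 target genes lie right of it.

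STAT3 lies on chromosome 17 from 42313324 to 42388540 on the minus strand and encodes the transcription factor that gp130 activates. Wild type cells had 36.3 and 35.7 FPKM and knockout cells 78.3 and 81.1 FPKM, which made it the most abundant of the 10 transcripts per length in both groups. STAT3 rose by 1.14 (SE 0.10, 2.21-fold, limma adjusted p = 5.72e-04), from 36.0 ± 0.383 to 79.7 ± 1.99 FPKM (SD, n = 2 per group). These are RNA levels, and phosphorylation of the protein was not measured.

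Of the 15 genes of the Janus kinase, STAT and SHP2 branch, 13 were tested, 7 rose and 1 fell, where 14.2% of all tested genes rose and 15.3% fell, and the median log2 fold change was 1.11 against -0.09 over all. The kinase genes moved apart. JAK1, the kinase on which gp130 mainly relies, rose from 16.3 and 14.8 FPKM to 32.4 and 35.0 FPKM (log2 fold change 1.11, limma adjusted p = 6.93e-04). JAK2 rose at a lower level, from 1.19 and 0.947 FPKM to 2.74 and 2.21 FPKM (log2 fold change 1.14, limma adjusted p = 0.00936). TYK2 fell from 81.8 and 117 FPKM to 34.9 and 31.5 FPKM (log2 fold change -1.56, limma adjusted p = 0.00113), but it was not called after rescaling to the same sum (-0.88). TYK2 was 5.02 and 7.94 times JAK1 in the wild type libraries and 1.08 and 0.899 times JAK1 in the knockout libraries. The other genes that rose were STAT2, PTPN11, which encodes the phosphatase SHP2 that binds gp130, and the adaptor genes GAB1 and SOS1, and their log2 fold changes ran from 1.15 for STAT2 to 1.56 for SOS1. GAB1 passed the filter only through its knockout values. After centring on the median, JAK1 (0.97) and JAK2 (limma adjusted p = 0.0189) were not called.

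SOCS3, on chromosome 17 from 78356778 to 78360077 on the minus strand, is both an inhibitor of gp130 and a target of STAT3. Wild type cells had 18.02 and 14.1 FPKM and knockout cells 16.25 and 14.7 FPKM. The groups overlapped. The log2 fold change was -0.04 (SE 0.15, limma adjusted p = 0.803), with means of 16.1 ± 2.75 and 15.5 ± 1.07 FPKM (SD, n = 2 per group), but its direction depended on the scaling, since rescaling to the same sum gave 0.63 and correcting for length and GC content gave 0.47. Relative to STAT3 in the same library, SOCS3 was at 0.497 and 0.395 in the wild type and at 0.208 and 0.182 in the knockout. The ratio was lower in both knockout libraries (exact permutation p = 0.333, two-sided, 0.389 adjusted over the 7 ratios), the smallest p that the design allows. It was not corrected for length and GC content, and the corrected log2 fold changes lay closer together, at 0.47 for SOCS3 and 0.84 for STAT3.

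Of the 16 inhibitor genes, 13 were tested by limma, 4 rose and 0 fell (3 lower at an unadjusted p below 0.05), with a median log2 fold change of 0.63. Over all tested genes the shares were 14.2% and 15.3% and the median -0.09. All 4 were other SOCS genes. SOCS4 rose from 4.12 and 4.34 FPKM to 16.1 and 15.6 FPKM (log2 fold change 1.88), and SOCS7 rose from 2.75 and 2.68 FPKM to 9.37 and 10.7 FPKM (log2 fold change 1.85). SOCS5 (1.52) and SOCS6 (1.09) rose as well, and the limma adjusted p of the 4 ran from 4.87e-04 to 9.31e-04. After the length and GC correction SOCS7 was still called (1.43), while SOCS4 (0.84), SOCS5 (0.78) and SOCS6 (0.21) were not, and PTPN2, which encodes a phosphatase of Janus kinases and STAT factors, was called lower (-1.203, limma adjusted p = 0.00204). SOCS6 also missed the 2-fold threshold after centring each library on its median (0.95). These members are only distantly related to SOCS3 and are not standard readouts of IL-6 signalling. Of the 5 genes that shed the receptors from the cell surface or control that process, ADAM10 (log2 fold change 2.21) and ADAM17 (1.36), the proteases that cleave IL6R, rose, and RHBDF1 (-1.58), which encodes an ADAM17 cofactor, fell. After the length and GC correction ADAM10 was still called (1.03), and ADAM17 (0.82) and RHBDF1 (-0.97) were not. RHBDF1 was not called after rescaling to the same sum either (-0.91).

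**Figure D3:**
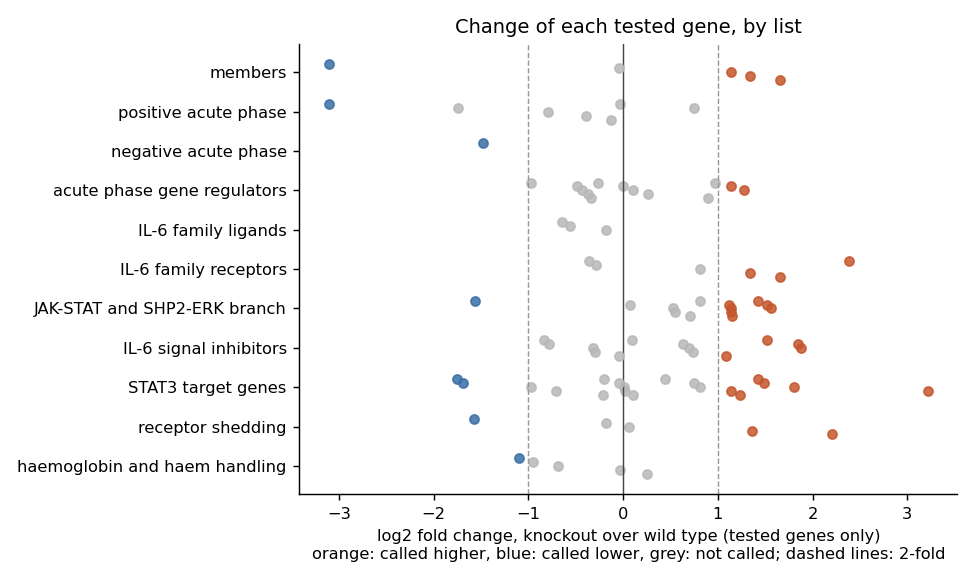
Log2 fold change of each tested gene, knockout over wild type, grouped by list, with genes called higher in orange, genes called lower in blue, uncalled genes in grey and dashed lines at 2-fold. The tested receptor and kinase genes lie mostly right of 0, while the tested plasma protein genes lie mostly left of it.

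Of the 6 plasma protein genes, SAA1 alone passed the filter, and the other 5 were the lowest of the 10. CRP, which encodes C-reactive protein and lies on chromosome 1 from 159712289 to 159714589 on the minus strand, was listed at 0 FPKM in all 4 libraries. ORM1, on chromosome 9 from 114323098 to 114326479 on the plus strand, was also listed at 0 in all 4. Its neighbour ORM2, from 114329869 to 114333251, was listed at 0.0705 FPKM in wild type replicate 2 and at 0 in the other libraries. Both encode orosomucoid, a carrier of drugs and lipids in plasma, and they are so alike that reads may be split between them.

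HP encodes haptoglobin, which captures free haemoglobin, and lies on chromosome 16 from 72054505 to 72061055 on the plus strand. It was listed at 0.0559 FPKM in wild type replicate 2 and at 0 in the other libraries, and its near-copy HPR was listed at 0.0268 FPKM in knockout replicate 2 alone. HPX encodes hemopexin, which captures free haem, and lies on chromosome 11 from 6431049 to 6442617 on the minus strand. It had 0.207 and 0.171 FPKM in the wild type and 0.0181 and 0.217 FPKM in the knockout, so that knockout replicate 2 held the highest value of the 4 and knockout replicate 1 the lowest. No direction can be read from HP, HPX, ORM1, ORM2 or CRP at these levels.

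SAA1, on chromosome 11 from 18266260 to 18269977 on the plus strand, encodes serum amyloid A, an apolipoprotein that rises steeply in inflammation. Its level was 2.08 and 3.99 FPKM without the knockout and 0.137 and 0.408 FPKM with it. The groups did not overlap, although on the log2 scale both pairs of replicates lay further apart than those of IL6R and IL6ST. SAA1 fell by 3.10 on the log2 scale (SE 0.53, limma adjusted p = 0.00367), with means of 3.03 ± 1.35 and 0.272 ± 0.192 FPKM (SD, n = 2 per group). With no filter on low values the call was lost (limma adjusted p = 0.0181), and the knockout values lie near the pseudocount of 0.1. SAA2, a near-identical gene, had 0.454 and 0.761 FPKM against 0.286 and 0.578 FPKM, and these groups overlapped. SAA1 was 4.58 and 5.24 times SAA2 in the wild type and 0.478 and 0.707 times SAA2 in the knockout, although reads of such similar genes may be assigned to either.

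Of the 31 genes of positive acute phase proteins, 24 were not tested, 17 had a mean below 0.1 FPKM and 7 were listed at 0 in every library. For comparison, 67.2% of all genes in the table had a mean below 0.1 FPKM and 54.4% were listed at 0 throughout. Of the 7 that were tested, 1 fell, which was SAA1, and limma called 0 higher, with 1 higher at an unadjusted p below 0.05. Over all tested genes 15.3% were called lower and 14.2% higher. The median log2 fold change of the 7 was -0.39 against -0.09 over all tested genes. C3, the central complement component, had 5.75 and 16.8 FPKM in the wild type and 2.29 and 3.58 FPKM in the knockout, a log2 fold change of -1.75 that was not called (limma adjusted p = 0.0240), and the 2 wild type libraries lay far from each other. SERPINA1, SERPINA3 and FGB, all abundant liver products, stayed below 0.1 FPKM in every library. Of the 12 genes whose plasma proteins decline in inflammation, 10 had a mean below 0.1 FPKM, among them ALB and TTR, and only F12, the coagulation factor XII gene, was tested and fell (log2 fold change -1.48), a call lost after rescaling to the same sum (-0.82) and after the length and GC correction (-0.57). Among the 9 genes that handle haemoglobin and haem, 5 were tested, and limma called 1 lower and 0 higher (0 higher at an unadjusted p below 0.05). The shares over all tested genes were 15.3% lower and 14.2% higher. HMOX2, which encodes the constitutive haem oxygenase, was the called gene and fell by 1.10 on the log2 scale. Its value was -0.42 after rescaling to the same sum and -0.40 after the length and GC correction, with no call in either. BLVRA, which acts in the step after haem oxygenase, had a log2 fold change of -0.95 and was not called. It was called lower after centring on the median (-1.09, limma adjusted p = 0.00123), while rescaling to the same sum gave -0.27 without a call.

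Within the wild type libraries, the order of levels per transcript length was STAT3, SOCS3, IL6ST, SAA1, IL6R and HPX, with no overlap between any neighbours among these 6. In the knockout libraries STAT3 stood apart at the top, SOCS3 and IL6ST overlapped, IL6R followed, and SAA1 and HPX overlapped. The remaining 4 genes were at or near 0 FPKM in both groups, and their order cannot be told.

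The promoters of these genes were read from RefSeq (GRCh38.p14) as windows from 250 bases before to 50 bases after the annotated start, to show what the liver genes and the signalling genes share in sequence. Windows matched 7 of the 10 genes, and SOCS3 had 2 of them. The SOCS3 windows span 78360876 to 78361175 and 78359618 to 78359917, and neither covers the gene start at 78360077. The HPX window spans 6440938 to 6441237 and does not cover the gene start at 6442617. The sequence at those gene starts was not searched. The windows of the plasma protein genes HPX, ORM1 and CRP had 54.0%, 56.3% and 41.0% GC and held 3, 7 and 3 CpG dinucleotides. Those of SOCS3, IL6R, IL6ST and STAT3 had between 64.0% and 72.7% GC and held between 17 and 36 CpG dinucleotides, where the median over 35116 windows was 58.7% GC and 14 CpG dinucleotides. This measure of base composition was chosen after the values had been seen.

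Each window was searched on both strands for motifs that included the STAT motifs TTCNNNGAA and TTCCNGGAA (the second is a special case of the first), the C/EBP motif TTGCNNAA, the NF-κB motif and the TATA box TATAAA. These occur in 7.66%, 1.15%, 10.5%, 0.558% and 11.5% of all windows. The windows of IL6R, IL6ST and STAT3 held none of these letters. Neither did those of SOCS3, which leave out its gene start, so no statement is made about that region. The 3 matches, with the motif in capitals, were a C/EBP motif in HPX (chr11:6441174-6441201, minus strand) and TATA boxes in ORM1 (chr9:114323058-114323085, plus strand) and CRP (chr1:159714602-159714629, minus strand).
HPX: ctgcttgaaaaTTGCTGAAgggggttgg
ORM1: ccatagtttatTATAAAggtgactgcac
CRP: actgctttggaTATAAAtccaggcagga
The HPX motif begins at position -203 relative to the RefSeq start of its window, and both TATA boxes begin at position -29. A match is a match of letters only, and binding was not measured.

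Other regulators of acute phase genes were listed too, among them transcription factor genes and genes of cytokine receptors and their signalling. Of 20 such genes, 13 were tested by limma, 2 rose and 0 fell (6 lower at an unadjusted p below 0.05), beside 14.2% and 15.3% of all tested genes. NR3C1, the glucocorticoid receptor gene, rose from 8.92 and 8.65 FPKM to 21.4 and 21.3 FPKM (log2 fold change 1.27), and FOXA1, a liver pioneer factor gene, rose from 4.45 and 2.92 FPKM to 7.61 and 8.53 FPKM (log2 fold change 1.14). Neither was called after the length and GC correction, with 0.40 for NR3C1 and 1.05 for FOXA1 (limma adjusted p = 0.0123 and 0.0122), and FOXA1 was not called after centring on the median (limma adjusted p = 0.0125). CEBPB, which encodes the C/EBP factor first found as a nuclear factor of IL-6, had 20.5 and 22.3 FPKM against 19.95 and 26.7 FPKM and was not called (log2 fold change 0.11), but it was called higher after the length and GC correction (1.09, limma adjusted p = 0.00323). CEBPD had 38.2 and 38.8 FPKM against 16.9 and 22.7 FPKM, a log2 fold change of -0.97 (limma adjusted p = 0.00298) just short of 2-fold. It was called lower after centring on the median (-1.11, limma adjusted p = 0.00144). Rescaling to the same sum gave -0.29 without a call, and the length and GC correction turned it to 0.09.

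Of 20 genes known as targets of STAT3, 19 were tested, 6 rose and 2 fell, with a median log2 fold change of 0.11, beside 14.2% higher, 15.3% lower and a median of -0.09 over all tested genes. FOS, an immediate early gene, rose from 31.2 and 18.5 FPKM to 223 and 224 FPKM (log2 fold change 3.21). ZFP36 (1.81), which encodes an mRNA decay factor, HIF1A (1.48), BCL6 (1.42), PIM1 (1.23) and STAT3 itself were the others that rose, and HIF1A was not called after the length and GC correction (0.95, limma adjusted p = 0.0305). BCL3, which encodes a partner of NF-κB, fell from 17.4 and 20.6 FPKM to 6.08 and 5.05 FPKM (log2 fold change -1.75), and so did TIMP1 (-1.69), a metalloproteinase inhibitor gene. JUNB, another immediate early target, had 63.9 and 69.3 FPKM against 70.3 and 63.6 FPKM, and the groups overlapped. Many of these genes have other activators, and FOS in particular answers to growth factor signals.

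Over all 128 listed pathway genes other than the 10, 75 were tested, 20 rose and 6 fell, beside 14.2% and 15.3% of all tested genes, and the median log2 fold change was 0.07 against -0.09. The lists were assembled with earlier results of these libraries known. Markers of other cell types were checked too. Of 6 leukocyte markers, 1 was tested, CD3E was listed at 0 throughout, and the summed level, mostly CD68, reached 4.13 and 6.37 FPKM without the knockout against 6.26 and 7.53 FPKM with it. CD68, the tested marker, was not called as deposited (log2 fold change 0.58), but it was called higher after rescaling to the same sum (1.26, limma adjusted p = 0.00121) and after the length and GC correction (1.21, limma adjusted p = 0.00461). Of 7 fibroblast and endothelial markers, 3 were tested, COL1A2 was listed at 0 throughout, and the summed level, mostly COL1A1, reached 34.4 and 26.1 FPKM without the knockout against 26.4 and 22.1 FPKM with it, with CDH5 called higher (log2 fold change 1.92). CDH5 passed the filter only through its knockout values. Their part in the changes of the 10 genes was not tested.

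Scaling set how many genes were called in each direction. As deposited, 2021 genes were lower and 1885 were higher, so that 48.3% of the calls were higher. After rescaling to the same sum this share was 90.7%, with 447 lower and 4380 higher and a median shift of 0.59, and after centring each library on its median it was 35.8%. The 4 called genes among the 10 kept their direction and their call under both, with STAT3 only just past 2-fold after centring. Rescaled to the same sum, the log2 fold changes were -2.64 for SAA1, 2.02 for IL6R, 2.34 for IL6ST and 1.82 for STAT3.

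**Figure D4:**
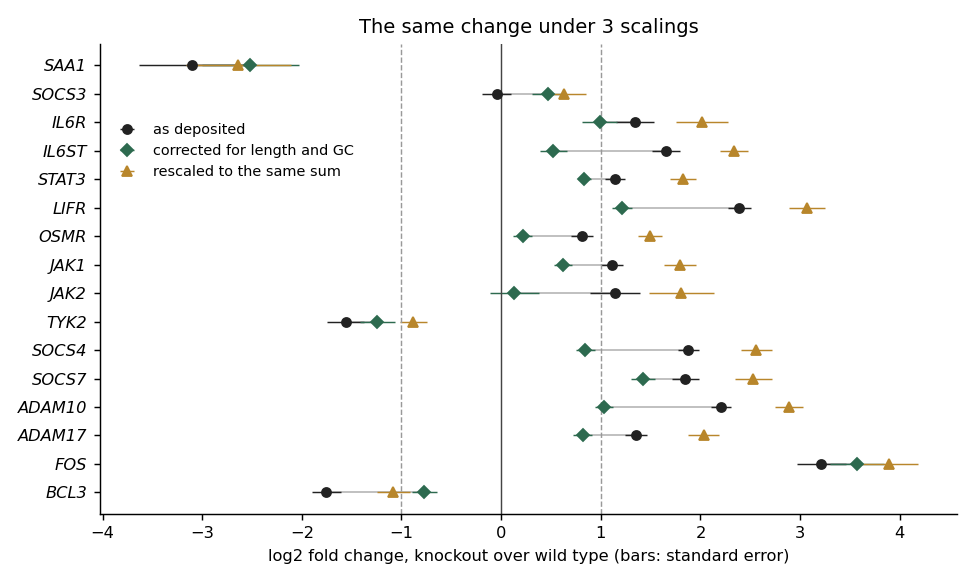
Log2 fold change, knockout over wild type, of 16 genes as deposited, after a correction for transcript length and GC content, and after rescaling to the same sum, with bars for the standard error and dashed lines at 2-fold. SAA1 stays left of the lower line under all 3, SOCS3 lies on either side of 0, and the corrected values of IL6R, IL6ST and STAT3 lie below the upper line.

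Transcript length moved with the change, and the called genes differ in length. Across the tested genes, the Spearman correlation of the log2 fold change was 0.495 with canonical transcript length and -0.462 with GC content, and between the 2 wild type libraries, where no genotype differs, the difference correlated with length at -0.325. Between the 2 knockout libraries this correlation was -0.0625. Genes are not independent replicates, so no p is given. IL6ST has a transcript of 9027 nt, IL6R of 5764 nt, STAT3 of 4921 nt and SOCS3 of 2734 nt, whereas SAA1 has 518 nt, and the median over tested genes is 2866.5 nt. A loess curve on length and GC content, fitted to each library, accounted for 1.13 of the value of IL6ST, 0.35 of IL6R, 0.31 of STAT3, -0.52 of SOCS3 and -0.59 of SAA1 on the log2 scale.

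After that correction, SAA1 was still called (log2 fold change -2.52, limma adjusted p = 0.00957) and limma called 0 of the 10 genes higher, with 4 higher at an unadjusted p below 0.05. IL6R then stood at 0.99 (limma adjusted p = 0.00762), STAT3 at 0.84 (limma adjusted p = 0.00126) and IL6ST at 0.52 (limma adjusted p = 0.0255). All 3 remained above 0 but under 2-fold. LIFR was still called at 1.22, and TYK2 at -1.24. Calls became fewer over all genes, from 2021 lower and 1885 higher of 13246 to 969 lower and 841 higher of 13112. In the branch of kinases and STAT factors the calls went from 7 higher to 0 higher (9 at an unadjusted p below 0.05), with TYK2 still lower. Among the 19 tested STAT3 targets the fallen genes BCL3 and TIMP1 were no longer called, while 5 genes were called higher. The share of each value that belongs to the genotype and the share that goes with length in these libraries cannot be told apart.

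**Figure D5:**
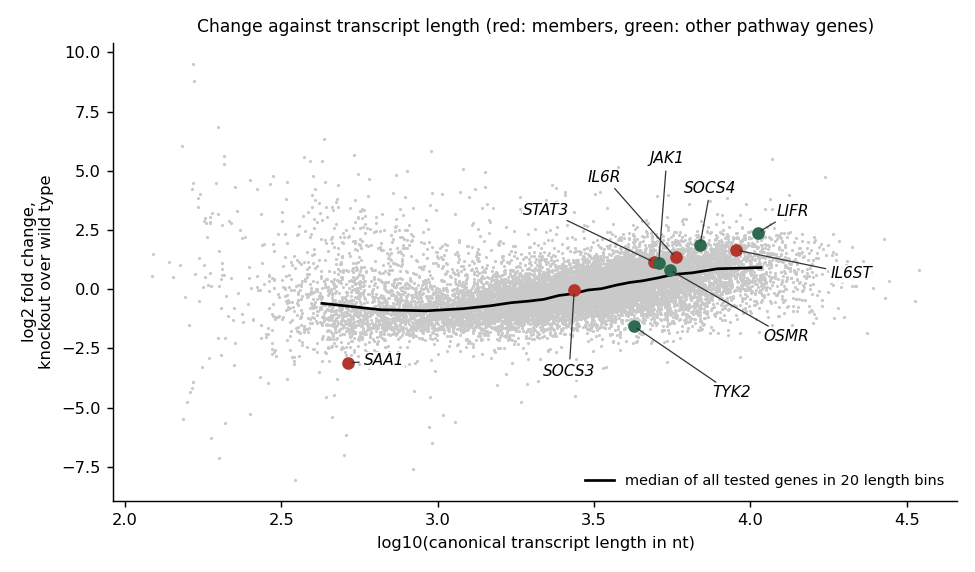
Log2 fold change, knockout over wild type, of each tested gene against the log10 of its canonical transcript length in nt, with the median in 20 length bins as a black line, the tested members in red and other pathway genes in green. The line lies below 0 for short transcripts and above 0 for long ones, IL6ST, IL6R and STAT3 lie above it on its right side, and SAA1 lies below it at the left.

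By the distance between log2 profiles centred over the 4 libraries, the genes nearest to IL6ST were CHD6 (0.0589), NF1 (0.0656) and SHROOM3 (0.0786). Those nearest to SAA1 were RPL36A-HNRNPH2 (0.413), CTB-33G10.6 (0.431) and GS1-184P14.2 (0.439), at larger distances. With 4 libraries in 2 groups, such a profile holds mainly the difference between the groups.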

How the data were processed

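Polyadenylated RNA from 2 wild type and 2 TXNDC9 knockout libraries was sequenced, and the deposited FPKM values came from Cuffdiff after the authors' TopHat2 alignment (genome build hg38). Tool versions, library scaling and strand use are not given in the sources used here. The table also holds the authors' averages, fold changes, p-values and q-values, which were not used. Its identifiers were out of register with the symbols and were put back in order, and symbols were taken as given. The row with the highest mean was used where a symbol repeats. Genes with a mean above 1 FPKM were tested on log2(FPKM + 0.1). The test was limma's (version 3.58.1, R 4.3.3, trend in the prior variance) and was checked on simulated data. Calls needed an adjusted p below 0.01 and at least a 2-fold change. Lengths, GC content and positions came from GENCODE release 44, and figures were drawn with Python 3.11.15 and matplotlib 3.10.9. The 10 genes and the gene lists were chosen with earlier results of these data known. Named genes are the 10, the 2 with the largest change in each list, a further set of IL-6 pathway, liver and regulator genes, TXNDC9, and the 3 nearest profiles of the members with the largest fall and rise. Some genes of the lists are not reported here by name. Other genes were named after their values were seen. Alternatives were other pseudocounts, filters, thresholds and scalings, no trend, a length and GC correction, a replicate block, summed rows and leaving out each library.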

Additional observations from a re-analysis of the deposited data

How the results depend on the processing

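The direction of SAA1, IL6R, IL6ST and STAT3 was the same under all alternatives in which they were fitted, with ranges of -3.65 to -1.63 for SAA1, 0.96 to 2.02 for IL6R, 0.52 to 2.34 for IL6ST and 0.84 to 1.82 for STAT3 on the log2 scale. Depth is not given by FPKM values, so the error of low genes such as HP, HPX and CRP cannot be stated. The replicate numbers share only a number (correlation of deviations -0.0904), and with the replicate block 2146 genes were called lower and 1960 higher, with 1 and 3 of the 10 genes and 7 and 20 of the other pathway genes. With the length and GC correction and the replicate block, 975 genes were lower and 841 higher, with 0 of the 10 genes higher and 8 other pathway genes higher. Beside these, the block changed the call of C3, which was lower with an adjusted p of 1.23e-04 (limma).

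Rescaling to the same sum gave 447 genes lower and 4380 higher, and 2 pathway genes lower and 33 higher. The length and GC correction gave 969 genes lower and 841 higher, 0 of the 10 genes higher, and 2 pathway genes lower and 8 higher. A mean above 5 FPKM left 1220 genes called higher and 0 of the 10 genes called lower, because SAA1 was no longer tested, and with no filter 0 of the 10 were called lower. Leaving out each library in turn gave 0 to 2633 genes lower and 0 to 2136 higher, 0 to 1 of the 10 genes lower and 0 to 3 higher, and 0 to 9 pathway genes lower and 0 to 21 higher. The counts of 0 came without either knockout library, where limma's lowest adjusted p was 0.0160 or 0.0232 and the lone library was assumed to vary like the other group. At an adjusted p below 0.05 those fits called 3747 and 3943 genes, among them 4 of the 10.

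Uncalled genes reversed. SOCS3 was 0.63 rescaled to the same sum, 0.47 after the length and GC correction with and without the block, and between -0.22 and 0.13 with 1 library left out. TXNDC9 was 0.12, CLCF1 0.015 and COL1A1 0.19 after rescaling. CEBPD was 0.085 and CLCF1 0.073 after the correction, with and without the block. CEBPB was -0.036 and JUNB -0.14 after centring on the median, and with 1 library left out CEBPB ran from -0.10 to 0.32 and JUNB from -0.065 to 0.080. The cause was not tested.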
